A study of Homo sapiens with 60 samples.

Results

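The genes described here are 51 genes whose products act in G2 and mitosis, the part of the cell cycle in which a cell commits to division, condenses its chromosomes, pulls them apart and splits. They were taken by name from the gene table, in which 51 of 60675 rows carry these symbols, and all 51 were among the 17764 genes that passed the filter on low counts. By role they fall into 9 groups: 11 kinases, cyclins and regulators of mitotic entry, 5 genes of chromosome structure, 7 of the kinetochore, 5 of the spindle checkpoint, 4 of the chromosomal passenger complex, 6 motor proteins, 6 spindle proteins, 5 genes of anaphase and protein destruction, and 2 of cytokinesis. KIF4A has the near-identical gene KIF4B and CKS1B has pseudogene copies, so the reads of these genes may be shared with their copies and their values are uncertain.

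The study measured messenger RNA in A549, a line of human lung adenocarcinoma cells that divides continuously in culture, 24 h after treatment with plant extracts. There were 60 libraries in 25 groups: the vehicle, DMSO, with 3 libraries, and 8 extracts at a low, a medium and a high dose, labelled 20, 100 and 500 µg/mL. Water extracts were made of Sibjeondaebo-tang (3 libraries per dose) and Palmul-tang (2 per dose), which are formulas of several herbs. Ethanol extracts were made of Poria Cocos, Atractylodis Rhizoma, Glycyrrhizae Radix (licorice root) and Panax Ginseng (3 per dose), and of Angelicae Gigantis Radix and Paeoniae Radix (1 per dose). The labels give the vehicle as 0.1% DMSO and the design text gives 2%, and that text also states that lower doses were used where an extract's IC20 was under 500 µg/mL, so the highest dose of a given extract may not be the labelled one. The labels do not say whether replicates came from separate cultures, so each p-value measures the spread between these libraries, which may be technical.

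Entry into mitosis is driven by the kinase CDK1 bound to cyclin B, which CDC25 phosphatases switch on and PLK1 reinforces. Chromosomes are then held at kinetochores by spindle microtubules, the checkpoint proteins wait until every kinetochore is attached, and CDC20 afterwards turns the anaphase-promoting complex on cyclin B and securin, so that sister chromatids part and the cell can divide. Most of these genes are transcribed in a burst late in the cycle, under the MuvB protein complex together with the transcription factors MYBL2 and FOXM1, and are held down by MuvB as part of the DREAM complex when cells stop cycling. Their summed messenger RNA is widely used as a measure of proliferation in tumour cells, and in a bulk sample fewer cells in mitosis and less messenger RNA per cell cannot be told apart.

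MuvB reaches its target promoters through the cell cycle homology region, a short element with the core TTTGAA that lies close to the transcription start, often with CCAAT boxes upstream of it. Promoter windows of RefSeq (GRCh38.p14), 250 bases before to 50 bases after the start, were found for 44 of the 51 genes, in 55 windows. The 100 bases before the start are printed below, 5′ to 3′ on the strand of the gene, for the 7 genes in which the core lies in this stretch and whose dose change with Sibjeondaebo-tang, described further on, had the smallest adjusted p. Capitals mark the core, which reads TTCAAA where it lies on the opposite strand. The windows are CDC20 at chr1:43358881-43358980 (plus strand), PRC1 at chr15:90994536-90994635 (minus strand), BUB1B at chr15:40160969-40161068 (plus), ESPL1 at chr12:53268199-53268298 (plus), GTSE1 at chr22:46296770-46296869 (plus), CCNB2 at chr15:59105046-59105145 (plus) and CDCA8 at chr1:37692416-37692515 (plus).
CDC20: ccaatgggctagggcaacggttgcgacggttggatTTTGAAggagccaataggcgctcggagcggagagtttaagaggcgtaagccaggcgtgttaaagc
PRC1: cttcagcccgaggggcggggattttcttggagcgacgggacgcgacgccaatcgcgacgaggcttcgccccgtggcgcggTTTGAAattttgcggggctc
BUB1B: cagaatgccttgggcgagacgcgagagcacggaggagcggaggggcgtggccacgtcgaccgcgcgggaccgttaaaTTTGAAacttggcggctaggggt
ESPL1: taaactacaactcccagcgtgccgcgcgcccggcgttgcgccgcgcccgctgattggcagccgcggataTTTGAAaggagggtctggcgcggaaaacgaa
GTSE1: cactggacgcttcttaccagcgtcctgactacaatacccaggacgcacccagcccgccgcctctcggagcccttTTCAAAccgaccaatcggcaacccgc
CCNB2: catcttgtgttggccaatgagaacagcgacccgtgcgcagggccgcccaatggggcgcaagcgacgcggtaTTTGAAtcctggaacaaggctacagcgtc
CDCA8: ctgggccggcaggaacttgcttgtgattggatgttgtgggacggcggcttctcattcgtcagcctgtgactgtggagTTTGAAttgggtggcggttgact

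The core starts 20 bases before the transcription start in PRC1, 23 in BUB1B and in CDCA8, 26 in GTSE1, 29 in CCNB2, 31 in ESPL1 and 65 in CDC20. Over the whole window and on both strands, TTTGAA was found in 65.5% of the 55 windows of the mitosis genes (36 windows, 33 of 44 genes), against 10.8% of the 17344 windows of tested genes and 15.2% of all 35116 windows. Starting within the 60 bases before the start it was found in 43.6%, against 1.97% of the windows of tested genes and 2.98% of all windows. CCAAT, searched on both strands as CCAAT and ATTGG, was found in 74.5% of the mitosis windows, 34.4% of the windows of tested genes and 34.6% of all windows. A match of CCAAT and a match of TTTGAA can share at most 1 end base. In the DNA replication genes, which peak earlier in the cycle, TTTGAA was found in 3.45% of windows and CCAAT in 72.4%. A match is a run of letters and does not show that the element is used, and the windows of TPX2, TTK, FOXM1, BUB3, AURKA, UBE2C and BIRC5 were not searched.

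**Figure D1:**
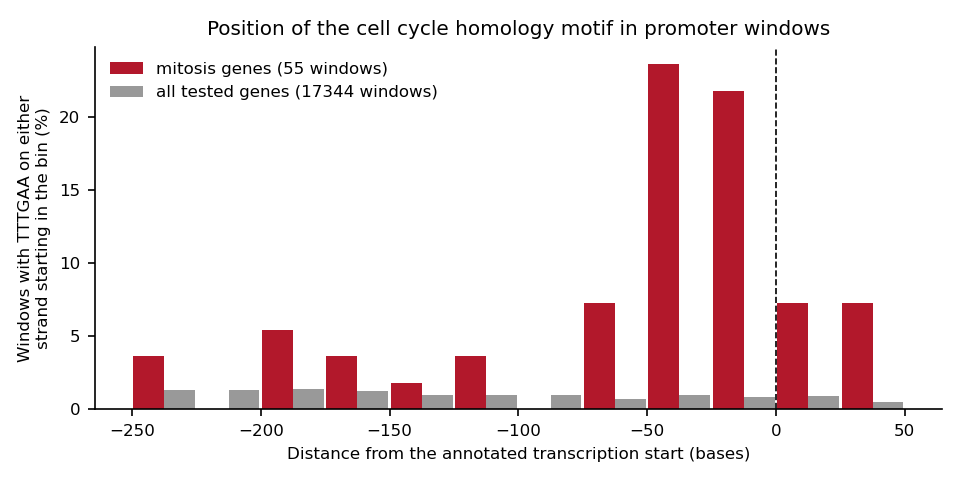
Share of promoter windows (y axis, percent) with TTTGAA on either strand starting in each 25-base bin, against the distance of the bin from the transcription start (x axis, bases), for the 55 windows of mitosis genes and the 17344 windows of tested genes. The mitosis windows stand highest in the bins from 50 to 25 and from 25 to 0 bases before the start, at 23.64% and 21.82%, where the tested genes are at 0.9398% and 0.8014%.

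The libraries held 18602484 to 29764358 counts each, and the counts of mitochondrial genes took 14.47% to 25.86%. The epithelial markers KRT8 (2060 to 4510 CPM, counts scaled to the library total), KRT18, CDH1 and EPCAM were present in all 60 libraries, while the leukocyte markers PTPRC and CD3E were at 0 in 53 and 54 libraries and the endothelial marker VWF in 52. A second endothelial marker, PECAM1 (0.0445 to 0.503 CPM), was at 0 in no library. Nor were the fibroblast markers COL1A1 (1.43 to 2.96 CPM) and COL3A1 (2.22 to 9.85 CPM). Over the 60 libraries the mean level of the mitosis genes ran from 6.4 CPM for CDC25C to 405.5 CPM for MKI67. Per kilobase of exon in the vehicle libraries, the highest were the CDK-binding protein CKS2 (75.0 CPM per kb), the phosphatase CDC25B (60.1), the spindle activator TPX2 (50.1), CDC20 (40.7) and the topoisomerase TOP2A (40.6), and the lowest were the kinetochore protein NDC80 (2.1) and CDC25C (2.32). The 3 doses of an extract share a set of sample codes, whose last number runs high, medium, low, so that order of codes and dose cannot be told apart. The vehicle libraries carry a set code of their own, so set and vehicle cannot be told apart either. The high dose was therefore compared first with the low dose of the same extract. The vehicle totals ran from 18602480, the lowest of all libraries, to 22724543 rounded counts. Some libraries of other groups lay within this range, such as Paeoniae at low dose (22002777).

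The mean level of the mitosis genes climbed with dose in the Sibjeondaebo-tang, Palmul-tang, Poria, Ginseng and Angelicae series, was nearly level with Atractylodis, and stood highest at the medium and lowest at the high dose of Glycyrrhizae. With Paeoniae it was lowest at the high dose. As a mean of log2(CPM + 1) over the 51 genes, Sibjeondaebo-tang stood at 5.60, 5.74 and 5.89 at low, medium and high dose, Palmul-tang at 5.59, 5.72 and 5.92, and Poria at 5.75, 5.88 and 5.99. Ginseng stood at 5.64, 5.72 and 5.79 and Atractylodis at 5.71, 5.73 and 5.74. Glycyrrhizae stood at 5.65, 5.75 and 5.53. Among the extracts with 1 library per dose, Angelicae stood at 5.67, 5.73 and 5.83 and Paeoniae at 5.69, 5.67 and 5.35. The vehicle libraries averaged 5.76.

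**Figure D2:**
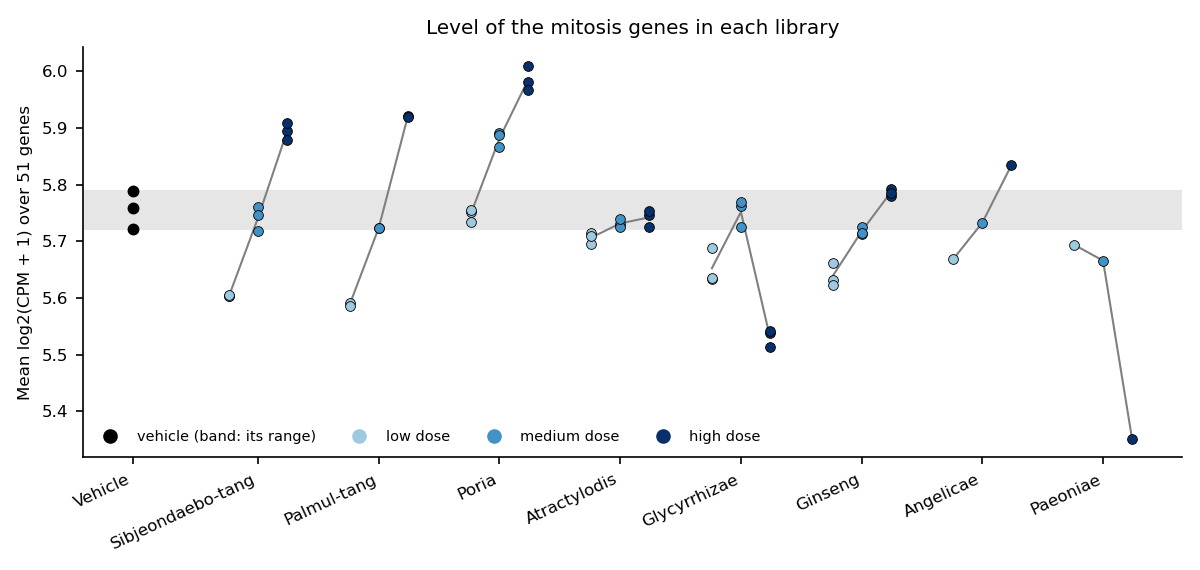
Mean of log2(CPM + 1) over the 51 mitosis genes (y axis) in each of the 60 libraries (points), by extract and dose (x axis, low to high within an extract, with the vehicle at the low end); the band spans the 3 vehicle libraries, 5.722 to 5.789. In Sibjeondaebo-tang, Palmul-tang and Poria every high-dose library stands above the vehicle band, while the high-dose libraries of Glycyrrhizae and Paeoniae stand below it.

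With Sibjeondaebo-tang the mitosis genes rose nearly as a block, from the kinases of mitotic entry to the proteins of cytokinesis. In the 500 µg/mL libraries 44 of the 51 genes were higher than in the 20 µg/mL libraries and none was lower, by edgeR's quasi-likelihood test at an adjusted p of 0.05. In the same comparison 2.35% of all tested genes were called higher and 1.44% lower. The rises were small and even, with a median log2 change of 0.30 and a range of 0.05 to 0.41. In 47 of the 51 genes every high-dose library stood above every low-dose library, which held for 10.1% of all tested genes. The exceptions were the ubiquitin-conjugating enzyme UBE2C, the cytokinesis gene ECT2, and the motors CENPE and KIF18A.

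All 11 genes of mitotic entry rose. CCNB1, cyclin B1, stood at 84.5, 91.4 and 90.2 CPM in the 3 high-dose libraries of Sibjeondaebo-tang, against 73.9, 61.0 and 69.3 CPM at low dose, a log2 change of 0.38 ± 0.06 (SE, adjusted p = 3.15e-05). Its kinase CDK1 stood at 47.1, 54.6 and 53.3 CPM at high dose, against 44.8, 41.7 and 42.6 CPM at low dose (log2 0.26 ± 0.06, adjusted p = 0.00363). PLK1 stood at 153.7, 144.0 and 134.0 CPM, against 115.2, 115.9 and 113.5 CPM (log2 0.33 ± 0.07, adjusted p = 0.00231). For each of these 3 genes the dose groups did not overlap. The phosphatase CDC25B, the most abundant gene of the group, had 276.4, 257.9 and 242.5 CPM at high dose, against 228.9, 214.8 and 216.7 CPM at low dose (log2 0.23 ± 0.05, adjusted p = 0.00134), again without overlap.

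Of the genes of chromosome structure, TOP2A, which untangles DNA, and the condensin subunits NCAPG, NCAPH and SMC4 rose. MKI67, the protein that coats mitotic chromosomes and serves as the common proliferation marker, stood at 511.1, 445.8 and 426.1 CPM in the high-dose libraries, against 381.5, 401.6 and 361.1 CPM in the low-dose libraries. Its groups did not overlap, but the change missed the threshold (log2 0.27 ± 0.09, adjusted p = 0.0874). At the kinetochore 5 of 7 genes rose, among them CENPF, a large outer kinetochore protein, with 179.4, 179.5 and 185.4 CPM, against 144.2, 154.7 and 145.7 CPM (log2 0.29 ± 0.05, adjusted p = 0.000188). The microtubule-binding subunit NDC80 had a change among the 3 largest of the 51 genes (log2 0.41 ± 0.11, adjusted p = 0.0207). The centromeric histone CENPA (log2 0.27) and CENPE (0.14) were not called.

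Of the 5 checkpoint genes the kinases BUB1 and TTK, the pseudokinase BUB1B and MAD2L1 rose, and BUB3 was not called, at 115.6, 122.6 and 115.7 CPM, against 107.4, 103.2 and 111.9 CPM (log2 0.13 ± 0.04, adjusted p = 0.085). The 4 genes of the chromosomal passenger complex, which corrects wrong attachments and later starts cytokinesis, rose together. Its kinase AURKB had 58.5, 55.6 and 60.4 CPM at high dose, against 43.9, 41.7 and 45.7 CPM at low dose (log2 0.41 ± 0.05, adjusted p = 2.4e-06). Its subunit BIRC5, or survivin, had 124.5, 107.2 and 133.2 CPM, against 94.2, 91.0 and 89.8 CPM (log2 0.41 ± 0.08, adjusted p = 0.000677). With NDC80 these were the 3 largest rises, and neither gene's groups overlapped.

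Of the motors 5 of 6 rose, including KIF20A, which acts in cytokinesis, with 75.2, 71.3 and 65.0 CPM, against 51.7, 54.0 and 54.2 CPM (log2 0.40 ± 0.06, adjusted p = 2.31e-05), and KIF11, which pushes the spindle poles apart, with 71.5, 72.5 and 70.4 CPM, against 57.4, 59.6 and 58.7 CPM. KIF18A was not called (log2 0.10). Of the spindle proteins 5 of 6 rose, TPX2 standing at 198.1, 191.3 and 171.2 CPM, against 153.1, 159.4 and 154.6 CPM (log2 0.26 ± 0.05, adjusted p = 0.00143), and NUSAP1 was not called (log2 0.21). All 5 genes of anaphase and protein destruction rose. CDC20 had the smallest adjusted p of the 51 genes, with 81.4, 83.1 and 76.9 CPM in the high-dose libraries, against 63.3, 60.5 and 63.8 CPM in the low-dose libraries (log2 0.36 ± 0.04, adjusted p = 9.34e-07). In cytokinesis the contractile-ring scaffold ANLN rose, with 129.6, 123.4 and 117.0 CPM, against 102.8, 105.6 and 100.6 CPM, while ECT2 was not called (log2 0.05 ± 0.04, adjusted p = 0.66).

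**Figure D3:**
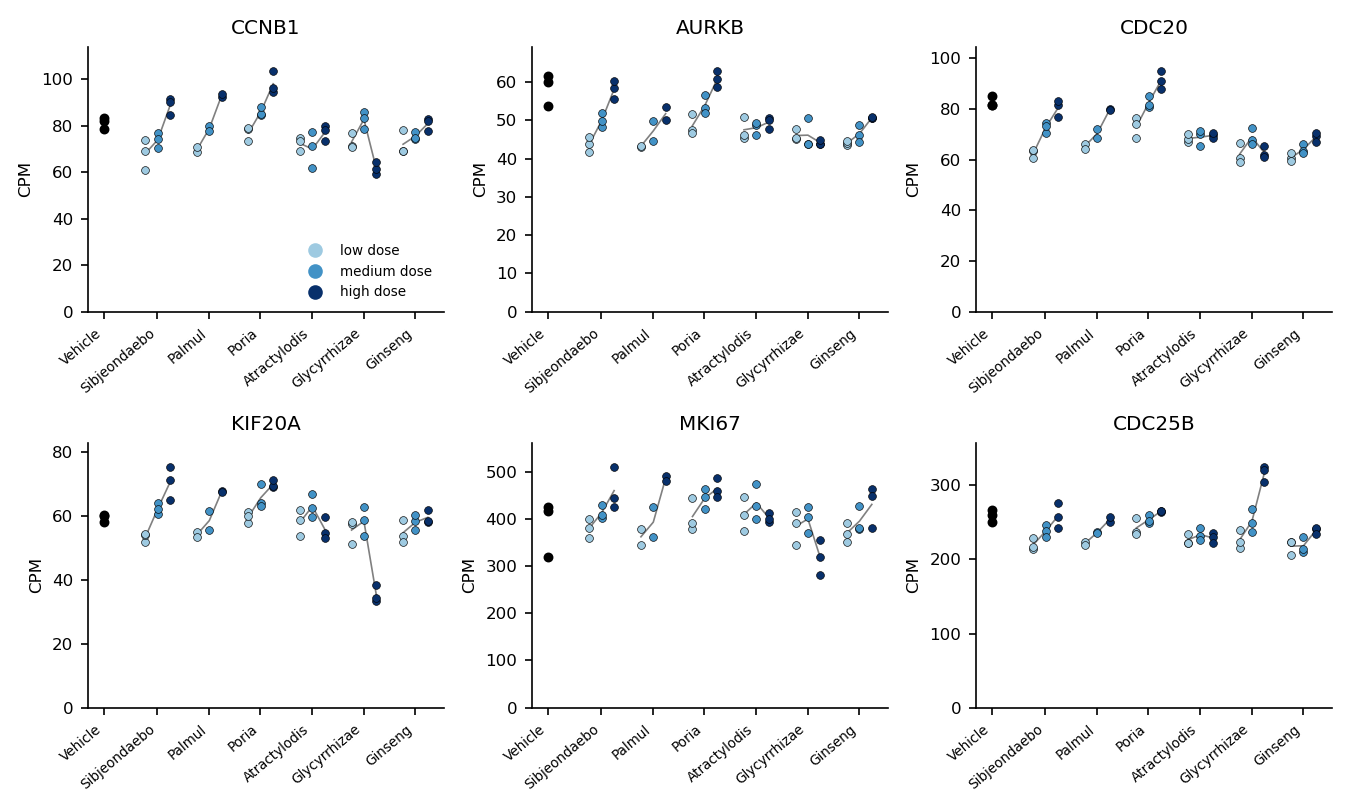
CPM (y axis) in every library (points) by extract and dose (x axis, low to high, vehicle at the low end) for CCNB1, AURKB, CDC20, KIF20A, MKI67 and CDC25B. In Sibjeondaebo-tang the high-dose points of all 6 genes lie above the low-dose points, and in Glycyrrhizae KIF20A drops to 33.3 to 38.3 CPM at high dose while CDC25B climbs to 304.1 to 324.9 CPM.

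The medium dose of Sibjeondaebo-tang lay between the others. Group means ran low, medium, high in 50 of the 51 genes, an order found in 23.4% of all tested genes, and ECT2 was the exception. Against the low dose, 3 genes were called at medium dose, all higher: cyclin B2, CCNB2 (log2 0.25, adjusted p = 0.0352), CDC20 (0.22, adjusted p = 0.0309) and BUB1 (0.22, adjusted p = 0.0309), where 0.0507% of all tested genes were called higher and 0.0281% lower. No gene was called by edgeR when any of the 6 libraries was left out.

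Palmul-tang, the second formula, gave a similar picture with fewer libraries. At high dose 40 of 51 genes were higher than at low dose and none was lower, with 1.29% of all tested genes called higher and 0.794% lower. The median log2 change was 0.35 and the range 0.10 to 0.55. Both high-dose libraries stood above both low-dose libraries in all 51 genes, which held for 22.3% of all tested genes. The largest rises were SPC25 of the NDC80 complex (log2 0.55 ± 0.13, adjusted p = 0.0132), the condensin subunit NCAPH (0.52 ± 0.07, adjusted p = 7e-06) and CENPE (0.48 ± 0.10, adjusted p = 0.00314). With only 2 libraries per dose the count hung on each of them: it was 25 without replicate 2 at high dose, 21 without replicate 2 at low dose, and 22 without replicate 3 at either dose.

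By role, Palmul-tang raised 8 of 11 entry genes, all 5 genes of chromosome structure, 4 of 7 kinetochore genes, 4 of 5 checkpoint genes, 3 of 4 passenger genes, 5 of 6 motors, all 6 spindle proteins, 3 of 5 anaphase genes and both cytokinesis genes. MKI67 was called here, at 493.1 and 482.1 CPM in the high-dose libraries, against 380.4 and 345.4 CPM in the low-dose libraries (log2 0.43 ± 0.11, adjusted p = 0.0275). CCNB1 stood at 92.3 and 93.8 CPM, against 68.6 and 70.7 CPM (log2 0.42 ± 0.07, adjusted p = 0.000403). ANLN stood at 131.5 and 129.7 CPM, against 97.1 and 96.0 CPM (log2 0.44 ± 0.06, adjusted p = 5.1e-06). For CCNB1 and ANLN the libraries of a dose lay close together and far from those of the other dose. The low-dose libraries of MKI67 lay further apart.

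Smaller were the changes of CDC20, with 80.0 and 79.5 CPM, against 66.3 and 64.3 CPM (log2 0.29, adjusted p = 0.00114), and AURKB, with 53.4 and 50.1 CPM, against 43.1 and 43.4 CPM (log2 0.26, adjusted p = 0.0297). BUB3 was again not called, at 120.7 and 116.3 CPM, against 112.8 and 108.7 CPM. Means ran low, medium, high in 49 of 51 genes (21.5% of all tested genes), with NDC80 and KIF4A as exceptions. At medium against low dose 0 genes were called by edgeR and 0 by DESeq2, and 0.0% of all tested genes were called. At an unadjusted p under 0.05, 25 were higher and none lower, where 4.86% of all tested genes passed, both ways together.

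The dose changes of the 2 formulas were set against each other in the same model. For Sibjeondaebo-tang minus Palmul-tang, 0 of the 51 genes were called by edgeR and 0 by DESeq2, with 0.0% of all tested genes called. At an unadjusted p under 0.05, 0 were higher and 7 lower, where 5.09% of all tested genes passed, both ways together. The differences had a median of -0.05 and ran from -0.34 to 0.26 log2. The 95% intervals had a median half-width of 0.18, reached from -0.60 to 0.55 at their widest, and in 7 genes did not include 0, so that differences of the size of the rises themselves lie within the intervals of some genes. The 35 genes called higher with both formulas were 35 of the 44 of Sibjeondaebo-tang and of the 40 of Palmul-tang. Of all 51 genes 86.3% were called higher with Sibjeondaebo-tang and 78.4% with Palmul-tang, so a large overlap follows from these shares alone. The size of the change varied without much relation between the formulas, with a Pearson r of 0.14 (Spearman correlation 0.10) over the 51 genes, which share libraries and are not independent.

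Poria, an ethanol extract of a fungus, raised 30 of 51 genes at high against low dose and lowered none, where 1.06% of all tested genes were called higher and 0.484% lower. The median log2 change was 0.23, with a range of 0.01 to 0.43. Every high-dose library stood above every low-dose library in 48 of 51 genes, which held for 9.94% of all tested genes, and CENPE, NUF2 and HMMR were the exceptions. The largest called rises were SPC25 (log2 0.43 ± 0.11, adjusted p = 0.0219), the microtubule-associated protein GTSE1 (0.39 ± 0.05, adjusted p = 6.5e-06), and CENPA (0.35 ± 0.09, adjusted p = 0.0191) beside CCNB1. The count was 18 without replicate 3 at high dose.

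The Poria rises covered 8 of 11 entry genes, 2 of 5 of chromosome structure, 3 of 7 at the kinetochore, 2 of 5 of the checkpoint, 3 of 4 passenger genes, 4 of 6 motors, 3 of 6 spindle proteins, 4 of 5 anaphase genes and 1 of 2 in cytokinesis. CCNB1 stood at 103.5, 94.5 and 96.1 CPM at high dose, against 73.2, 78.6 and 78.9 CPM at low dose (log2 0.35 ± 0.06, adjusted p = 0.000247). CDC20 stood at 88.0, 91.1 and 95.0 CPM, against 68.7, 76.4 and 74.1 CPM (log2 0.32 ± 0.04, adjusted p = 1.41e-05). GTSE1 stood at 38.0, 36.7 and 38.8 CPM, against 29.2, 29.6 and 28.0 CPM. None of the 3 genes overlapped between doses. PLK1 had 156.5, 154.5 and 166.1 CPM, against 127.0, 131.7 and 123.6 CPM (log2 0.32 ± 0.07, adjusted p = 0.00491), and AURKB 62.9, 58.7 and 60.7 CPM, against 47.4, 51.7 and 46.8 CPM (log2 0.32 ± 0.05, adjusted p = 0.000247).

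MKI67 was not called with Poria, at 460.3, 447.3 and 488.1 CPM, against 446.3, 379.8 and 391.8 CPM (log2 0.20, adjusted p = 0.365), its lowest high-dose library standing just above its highest low-dose library. Means ran low, medium, high in 49 of 51 genes (22.1% of all tested genes), with NUF2 and HMMR highest at medium dose. At medium against low dose 0 genes were called by edgeR and 0 by DESeq2, and 0.0% of all tested genes were called. At an unadjusted p under 0.05, 35 were higher and none lower, where 4.31% of all tested genes passed, both ways together. Sibjeondaebo-tang, Palmul-tang and Poria, whose dose comparisons share no library, raised 25 genes in common, and BUB3 was the 1 gene raised by none of them. In turn these extracts raised 86.3%, 78.4% and 58.8% of the 51 genes. Over the 51 genes the change with Poria and that with Sibjeondaebo-tang had a Pearson r of 0.57 (Spearman correlation 0.60). For Poria and Palmul-tang the Pearson r was -0.01 (Spearman correlation -0.08). The genes share libraries and are not independent.

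**Figure D4:**
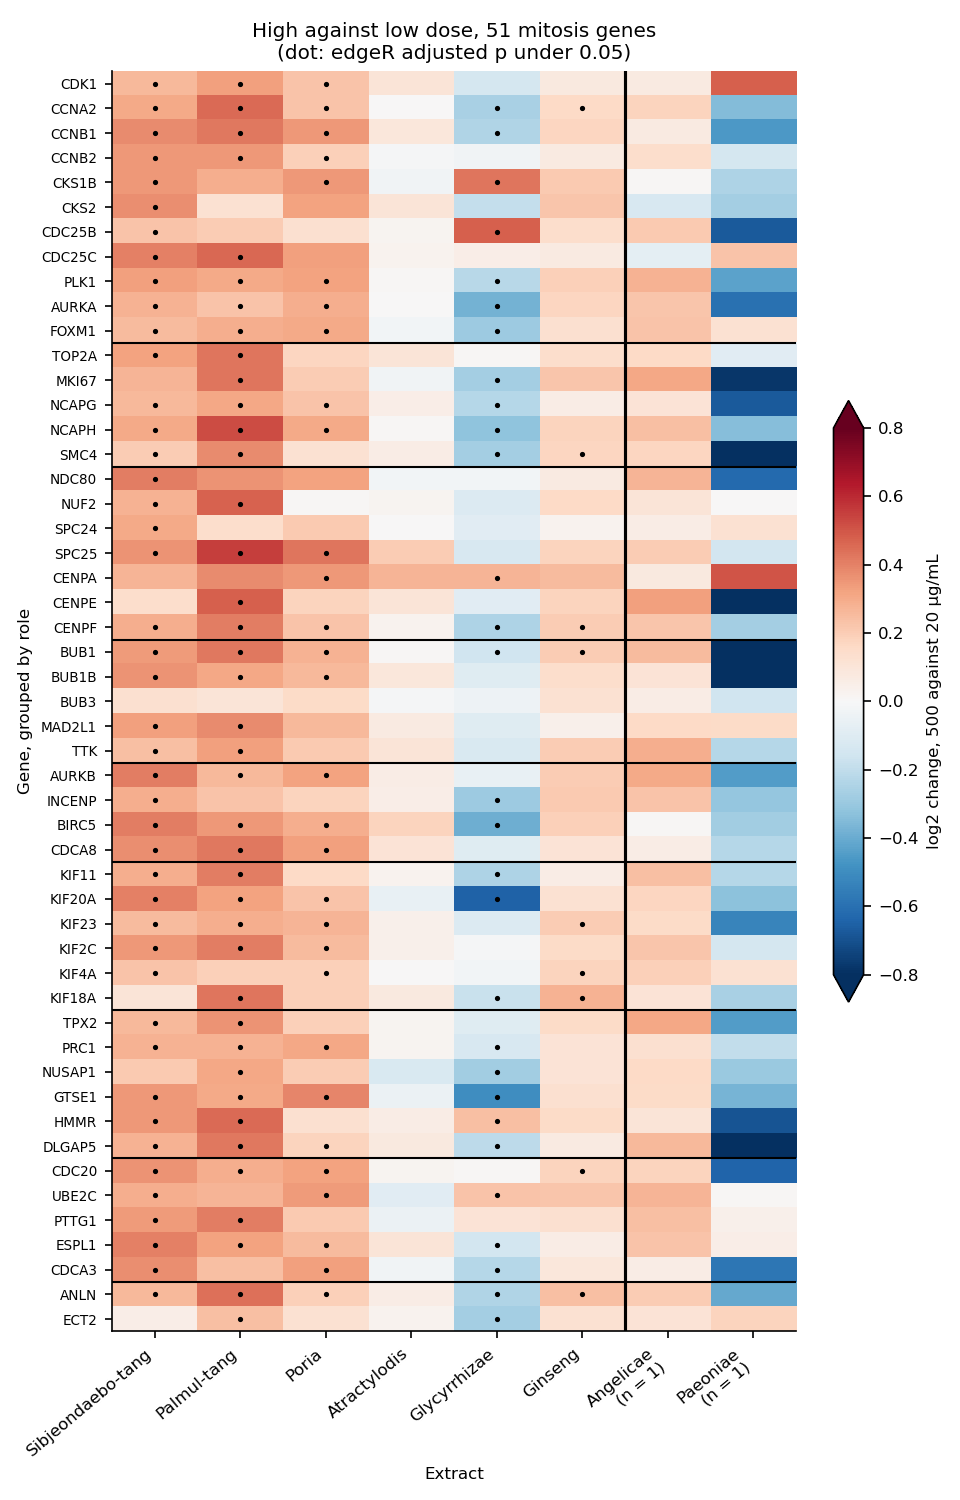
Log2 change of each of the 51 mitosis genes (rows, by role) at high against low dose for the 8 extracts (columns); a dot marks a gene called at an adjusted p of 0.05, and Angelicae and Paeoniae, with 1 library per dose, have no test. Sibjeondaebo-tang, Palmul-tang and Poria have 44, 40 and 30 called rises, Atractylodis none, Ginseng 9, and Glycyrrhizae 5 called rises and 24 called falls.

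With Atractylodis no mitosis gene passed the test at either dose step. At high against low dose 0 genes were called by edgeR and 0 by DESeq2. Of all tested genes 0.113% were called higher and 0.0957% lower. At an unadjusted p under 0.05, 3 mitosis genes were higher and none lower, where 6.85% of all tested genes passed, both ways together. The median log2 change was 0.03. CDC20 stood at 69.6, 68.6 and 70.5 CPM at high dose, against 67.1, 68.0 and 70.0 CPM at low dose, KIF20A at 54.7, 52.9 and 59.7 CPM, against 53.5, 58.5 and 61.9 CPM, and both genes overlapped between doses. Means ran low, medium, high in 21 of 51 genes, against 17.8% of all tested genes. The medium dose gave 0 calls against the low dose by edgeR and 0 by DESeq2, and 0.0% of all tested genes were called. No mitosis gene had an unadjusted p under 0.05, where 2.51% of all tested genes did.

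Poria and Atractylodis share a set of sample codes, and their dose changes were compared directly. For Poria minus Atractylodis 3 of 51 genes were called higher and none lower, where 0.0563% of all tested genes were called higher and 0.0169% lower, and the median difference was 0.21 log2. The 3 genes were GTSE1 (0.44 ± 0.07, adjusted p = 0.000925), the midzone bundling protein PRC1 (0.29 ± 0.05, adjusted p = 0.00449) and CDC20 (0.30 ± 0.06, adjusted p = 0.0307). DESeq2 called 7 genes, edgeR with only the compared libraries 0, and edgeR without replicate 2 of Poria at low dose 5.

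Ginseng raised 9 of 51 genes at high against low dose and lowered none, where 0.552% of all tested genes were called higher and 0.653% lower. The median log2 change was 0.15 and the range 0.03 to 0.28. The largest rises among the called genes were KIF18A, a motor that limits the length of kinetochore microtubules (log2 0.28 ± 0.06, adjusted p = 0.00878), ANLN (0.24 ± 0.05, adjusted p = 0.00293) and CENPF (0.20 ± 0.05, adjusted p = 0.035). Some genes that were not called had changes as large, up to 0.25 at the kinetochore. ANLN stood at 126.1, 119.0 and 129.4 CPM, against 103.9, 99.5 and 113.8 CPM, and CENPF at 174.3, 166.8 and 180.2 CPM, against 147.1, 159.1 and 148.3 CPM, without overlap. CDC20 rose to 69.2, 70.7 and 67.1 CPM at high dose, against 60.5, 62.5 and 59.3 CPM at low dose (log2 0.18 ± 0.05, adjusted p = 0.0233). The other called genes were BUB1, KIF23, KIF4A, SMC4 and CCNA2.

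High-dose libraries of Ginseng stood above all low-dose libraries in 26 of 51 genes (6.73% of all tested genes), and means ran low, medium, high in 45 (22.3%). Of its 9 called genes 8 were also called with Sibjeondaebo-tang, as were 86.3% of all 51 genes. The replicate numbers paired these samples by the rule in the methods, and the fit with the replicate block called 14 genes. The fit with only the compared libraries called 0, that without the filter 3, and leaving out a library called 1 without replicate 1 at high dose, 2 without replicate 1 at low dose, 5 without replicate 2 at high dose, and 2 without replicate 2 at low dose or replicate 3 at high dose. At medium against low dose 0 genes were called by edgeR and 0 by DESeq2, and 0.0% of all tested genes were called. At an unadjusted p under 0.05, 8 were higher and none lower, where 3.12% of all tested genes passed, both ways together.

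Glycyrrhizae was the replicated extract with which mitosis genes fell at high dose. Of the 51 genes 24 were lower and 5 higher in the 500 µg/mL libraries than in the 20 µg/mL libraries, with a median log2 change of -0.13 and a range of -0.65 to 0.48. This extract changed the transcriptome widely, with 18.4% of all tested genes called lower and 18.5% called higher, so the share of mitosis genes called lower, 47.1%, lay above that background and the share called higher, 9.8%, below it. The largest falls were KIF20A (log2 -0.65 ± 0.06, adjusted p = 1.14e-11), GTSE1 (-0.50 ± 0.05, adjusted p = 5.96e-11) and BIRC5 (-0.39 ± 0.08, adjusted p = 8.23e-05). The 5 rises were CDC25B (0.48 ± 0.05, adjusted p = 9.85e-12), CKS1B (0.43 ± 0.07, adjusted p = 5.17e-06), CENPA (0.27 ± 0.09, adjusted p = 0.0103), the hyaluronan receptor and spindle protein HMMR (0.24 ± 0.07, adjusted p = 0.00344) and UBE2C (0.23 ± 0.09, adjusted p = 0.0344).

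The genes of mitotic entry split. CDC25B stood at 239.8, 215.8 and 223.6 CPM at the low dose of Glycyrrhizae, 267.7, 249.5 and 237.6 CPM at medium and 324.9, 320.5 and 304.1 CPM at high dose, all 3 high-dose libraries above every other. CCNB1 stood at 71.4, 76.7 and 70.8 CPM at low, 78.6, 86.0 and 83.5 CPM at medium and 59.3, 61.3 and 64.2 CPM at high dose, highest at medium and lowest at high dose (high against low, log2 -0.24 ± 0.06, adjusted p = 0.00105). CDK1 had 39.1, 42.9 and 41.2 CPM at high dose, against 43.4, 49.6 and 42.9 CPM at low dose, and its change missed the threshold (log2 -0.14, adjusted p = 0.0533). AURKA, the kinase of the spindle poles, fell to 66.5, 64.8 and 68.7 CPM at high dose, against 89.3, 81.8 and 89.2 CPM at low dose (log2 -0.38 ± 0.05, adjusted p = 2.97e-08). PLK1 was called lower (log2 -0.22 ± 0.07, adjusted p = 0.0101) although 1 low-dose library lay within the high-dose range, with 102.2, 91.8 and 90.8 CPM, against 118.9, 95.1 and 117.8 CPM.

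Among the remaining roles, 4 of 5 genes of chromosome structure were lower with Glycyrrhizae, TOP2A not called (log2 0.01). MKI67 stood at 355.0, 319.0 and 281.8 CPM at high dose, against 416.4, 345.9 and 392.9 CPM at low dose (log2 -0.27 ± 0.09, adjusted p = 0.0147), with an overlap of 1 library. CENPF was the 1 kinetochore gene that fell, with 133.0, 134.5 and 133.5 CPM, against 163.8, 156.0 and 156.7 CPM (log2 -0.25, adjusted p = 0.000103). BUB1 was the 1 checkpoint gene that fell (log2 -0.16), and of the passenger complex BIRC5 and INCENP fell while AURKB was not called, at 43.8, 43.9 and 44.8 CPM, against 47.7, 45.0 and 45.4 CPM (log2 -0.06, adjusted p = 0.438).

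KIF20A showed the largest difference, with 57.4, 51.1 and 58.0 CPM at low, 62.7, 53.5 and 58.6 CPM at medium and 38.3, 33.3 and 34.2 CPM at high dose of Glycyrrhizae, the high-dose libraries far below all others. GTSE1 followed with 29.4, 26.8 and 27.0 CPM at low, 30.5, 29.7 and 29.1 CPM at medium and 19.9, 19.9 and 19.0 CPM at high dose. Both genes were called lower at high against medium dose, and neither was called at medium against low dose. KIF11 had 52.7, 54.6 and 53.8 CPM at high dose, against 65.1, 63.5 and 62.4 CPM at low dose (log2 -0.25, adjusted p = 0.000194), and ANLN 89.8, 90.2 and 86.4 CPM, against 104.3, 100.9 and 108.6 CPM (log2 -0.24, adjusted p = 7.82e-05). CDC20, which rose with 4 other extracts, stood at 65.3, 61.8 and 61.2 CPM at high dose, against 66.7, 60.6 and 59.1 CPM at low dose (log2 0.01, adjusted p = 0.851).

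Means were highest at the medium dose of Glycyrrhizae in 44 of 51 genes (27.1% of all tested genes), while CDC25B, CENPA, CKS1B, HMMR, PTTG1 and UBE2C ran low, medium, high, an order found in 22.2% of all tested genes. At high against medium dose 37 genes were lower and 2 higher, with 18.0% of all tested genes called lower and 18.0% higher, and the median log2 change was -0.25. KIF20A (log2 -0.72), GTSE1 (-0.61) and BIRC5 (-0.52) fell the most, and CDC25B (0.33) and CKS1B (0.31) rose. Between medium and low dose 1 gene was called, the spindle protein DLGAP5, higher by 0.22 log2 (adjusted p = 0.00562), where 0.18% of all tested genes were called higher and 0.608% lower. The replicate numbers paired these samples, and the fit with the replicate block called 5 genes. Leaving out a library gave 0 to 3 calls, with 3 without replicate 1 at medium dose, 2 without replicate 1 or 2 at low dose, and 0 without replicate 2 at medium or replicate 3 at low dose.

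With Glycyrrhizae the epithelial and fibroblast marker sums also separated the high dose from the low dose. The endothelial marker sum and the mitochondrial share overlapped between these doses. The part of these measures in the changes of the mitosis genes was not tested. The epithelial markers summed to 3740 to 4020 CPM in its high-dose libraries, against 6060 to 6340 CPM in its low-dose libraries, the fibroblast markers to 4.59 to 5.1 CPM, against 9.29 to 11.1 CPM, the endothelial markers to 0.218 to 0.379 CPM, against 0.141 to 0.378 CPM, and mitochondrial genes took 19.21% to 22.76%, against 16.3% to 21.48%. The leukocyte markers summed to 0 in all 3 high-dose libraries, as in all libraries of some other groups.

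The dose change of Glycyrrhizae was tested against that of Ginseng, which shares its set of sample codes, and against that of Sibjeondaebo-tang, which does not. The tests share the Glycyrrhizae libraries and are given side by side. For Glycyrrhizae minus Ginseng 32 genes were called lower and 1 higher, where 11.3% of all tested genes were called lower and 9.72% higher, and the median difference was -0.28 log2. KIF20A (-0.78 ± 0.09, adjusted p = 2.56e-09), GTSE1 (-0.63 ± 0.07, adjusted p = 2.52e-09) and BIRC5 (-0.58 ± 0.11, adjusted p = 8.05e-05) differed most, AURKA differed by -0.55 ± 0.07 (adjusted p = 4.01e-08), and CDC25B differed the other way (0.35 ± 0.07, adjusted p = 7.52e-05). For Glycyrrhizae minus Sibjeondaebo-tang 43 genes were called lower and 1 higher, where 13.1% of all tested genes were called lower and 11.3% higher, and the median difference was -0.46 log2. KIF20A (-1.06 ± 0.09, adjusted p = 3.48e-13), GTSE1 (-0.86 ± 0.07, adjusted p = 3.66e-13) and BIRC5 (-0.80 ± 0.11, adjusted p = 1.94e-07) differed most, AURKA differed by -0.66 ± 0.07 (adjusted p = 3.46e-10), and CDC25B was higher by 0.25 ± 0.07 (adjusted p = 0.00391).

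The 24 genes called lower with Glycyrrhizae at high against low dose included 20 that were called higher with Sibjeondaebo-tang in its own comparison, which shares no library with the first. Of all 51 genes 86.3% were called higher with Sibjeondaebo-tang, so a large overlap follows from that share alone. Of the 25 genes raised by Sibjeondaebo-tang, Palmul-tang and Poria, 16 fell with Glycyrrhizae, as did 47.1% of all 51 genes. In the test of the difference between Glycyrrhizae and Sibjeondaebo-tang 7 genes were not called: CENPE (-0.23), CENPA (0.00), CDC25C (-0.35), CKS1B (0.08), HMMR (-0.11), UBE2C (-0.06) and securin, PTTG1 (-0.23).

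**Figure D5:**
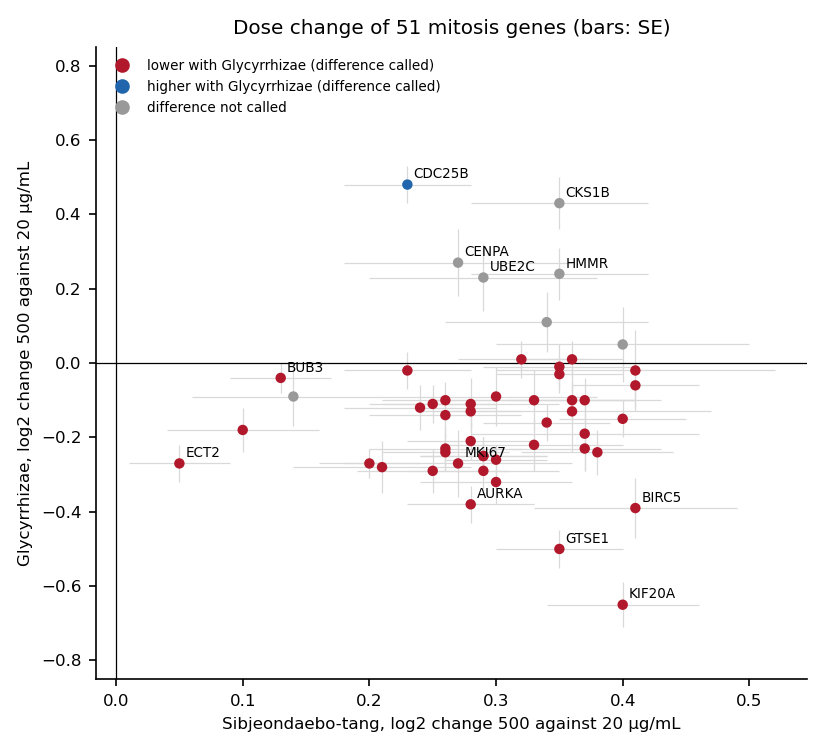
Log2 change at high against low dose with Glycyrrhizae (y axis) and with Sibjeondaebo-tang (x axis) for the 51 mitosis genes (points, bars are SEs), coloured by whether the difference between the extracts was called. Nearly all points lie below the diagonal, 43 of them called lower with Glycyrrhizae, and CDC25B lies above it.

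Genes with and without the core TTTGAA in the promoter window had similar median changes. With Sibjeondaebo-tang the 33 genes with the core had a median log2 change of 0.29 and the 11 searched genes without it 0.34, with Palmul-tang the medians were 0.35 and 0.41, with Poria 0.23 and 0.23, and with Glycyrrhizae -0.14 and -0.09. The genes printed above were chosen for their change with Sibjeondaebo-tang, so their rise with that extract follows from the choice. All of them also rose with Palmul-tang and Poria. With Glycyrrhizae GTSE1, PRC1 and ESPL1 fell, while CDC20, BUB1B, CCNB2 and CDCA8 were not called. CDC20 also rose with Ginseng.

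Angelicae and Paeoniae have 1 library per dose, so their differences have no replicate check. Genes were counted where the log2 ratio of CPM + 1 between high and low dose passed 0.32 in either direction. With Angelicae 1 gene, CENPE, was above it (0.33) and none below, where 2.98% and 3.69% of all tested genes were. The median log2 change was 0.17, and 49 of 51 changes were positive, as were 9120 of all 17764 tested genes. With Paeoniae 23 genes stood lower and 2 higher by that measure, where 21.5% and 22.2% of all tested genes did, with a median of -0.28 and a range of -1.74 to 0.50. CENPE stood at 44.5, 35.0 and 12.7 CPM at low, medium and high dose of Paeoniae, DLGAP5 at 38.7, 38.5 and 11.5 CPM, and BUB1B at 36.4, 35.8 and 14.7 CPM. These were the 3 largest falls (log2 -1.74, -1.67 and -1.25). From low to medium dose DLGAP5 and BUB1B were nearly level (log2 -0.01 and -0.03), while CENPE was already lower at medium dose (-0.34).

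MKI67 stood at 460.8, 384.2 and 267.8 CPM along the Paeoniae doses, CDC20 at 58.9, 58.9 and 37.5 CPM, and CCNB1 at 65.3, 74.5 and 47.3 CPM. The 2 genes counted as higher were CDK1, with 40.5, 46.9 and 57.0 CPM (log2 0.48), and CENPA, with 11.5, 12.9 and 16.7 CPM (log2 0.50), so that at high dose the kinase CDK1 stood above and its cyclin CCNB1 below the low-dose level. CDC25B, which rose with Glycyrrhizae, had 217.8, 217.9 and 136.7 CPM. Means ran low, medium, high in 5 genes (25.4% of all tested genes) and high, medium, low in 31 (23.8%). The Paeoniae high-dose library had an epithelial marker sum of 4950 CPM, against 6170 CPM at low dose, a fibroblast marker sum of 7.52 CPM, against 9.33 CPM, and a mitochondrial share of 24.25%, against 25.86%. The part of these in the falls was not tested.

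Against the vehicle the position of the mitosis genes differed between extracts and, with some extracts, between doses. The comparisons share the 3 vehicle libraries, so they are given side by side. At high dose 21 genes were higher and none lower with Sibjeondaebo-tang (9.04% and 6.12% of all tested genes), 23 higher and 1 lower with Palmul-tang (12.2% and 10.0%), and 40 higher and none lower with Poria (9.89% and 6.41%). Atractylodis had 8 higher and 7 lower (13.8% and 12.3%), shares near those of all genes. Ginseng had 11 higher and 5 lower (15.2% and 13.7%), and Glycyrrhizae 4 higher and 34 lower (23.3% and 23.5%). At low dose Sibjeondaebo-tang had 1 higher and 25 lower (12.6% and 11.5%), Palmul-tang 0 and 23 (8.73% and 6.72%), Poria 4 and 6 (10.9% and 8.65%), Atractylodis 5 and 12 (12.7% and 11.0%), Glycyrrhizae 4 and 23 (14.6% and 14.2%) and Ginseng 2 and 24 (14.6% and 14.2%).

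The largest called rises at high dose were CENPF (log2 0.36), TOP2A (0.32) and CENPE (0.31) with Sibjeondaebo-tang, CENPF (0.48), CENPE (0.46) and TOP2A (0.41) with Palmul-tang, and CENPF (0.47), NDC80 (0.43) and CENPE (0.40) with Poria. With Atractylodis they were CENPE (0.32), TOP2A (0.25) and CENPF (0.24), and with Ginseng CENPE (0.41), KIF18A (0.35) and CENPF (0.30). The 1 gene lower with Palmul-tang was AURKB (-0.18, adjusted p = 0.0302). The largest called falls were UBE2C (-0.38), the phosphatase CDC25C (-0.35) and PTTG1 (-0.26) with Atractylodis. With Ginseng the 5 falls were CDC25C (-0.32), CDC20 (-0.26), UBE2C (-0.26), CDCA3 (-0.22) and AURKB (-0.21). With Glycyrrhizae KIF20A (-0.75), BIRC5 (-0.71) and GTSE1 (-0.68) fell the most, and HMMR (0.33), CKS1B (0.30), CDC25B (0.29) and TOP2A (0.15) rose.

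At low dose the largest called falls against the vehicle were CDC25C (-0.58), UBE2C (-0.42) and AURKB (-0.42) with Sibjeondaebo-tang, CDC25C (-0.52), AURKB (-0.44) and UBE2C (-0.42) with Palmul-tang, and UBE2C (-0.34), AURKB (-0.27) and CKS2 (-0.27) with Poria. They were CDC25C (-0.38), CKS2 (-0.31) and AURKB (-0.30) with Atractylodis, UBE2C (-0.45), CDC20 (-0.42) and CDCA3 (-0.36) with Glycyrrhizae, and UBE2C (-0.49), CDC20 (-0.45) and AURKB (-0.41) with Ginseng. The genes called higher at low dose were ECT2 (0.14) with Sibjeondaebo-tang, CENPF (0.23), ECT2 (0.23), TOP2A (0.21) and the condensin subunit SMC4 (0.17) with Poria, CENPE (0.24), CENPF (0.17), ECT2 (0.14) and TOP2A (0.13) with Glycyrrhizae, and CENPE (0.23) and ECT2 (0.15) with Ginseng. With Atractylodis they were CENPE (0.23), CENPF (0.21), SMC4 (0.17), ECT2 (0.16) and TOP2A (0.15).

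CDC20, which stood at 81.7, 85.3 and 81.5 CPM in the vehicle libraries, changed at high and low dose by -0.04 and -0.41 log2 with Sibjeondaebo-tang, -0.06 and -0.34 with Palmul-tang, 0.14 and -0.18 with Poria, -0.25 and -0.28 with Atractylodis, -0.40 and -0.42 with Glycyrrhizae, and -0.26 and -0.45 with Ginseng. Relative to the vehicle, then, CDC20 was near its vehicle level at the high dose of the formulas and below it at their low dose. CENPF, which stood at 138.4, 132.5 and 153.5 CPM in the vehicle libraries, changed by 0.36 and 0.07, 0.48 and 0.07, 0.47 and 0.23, 0.24 and 0.21, -0.08 and 0.17, and 0.30 and 0.10 in the same order of extracts. CENPF was not called lower than the vehicle with any of these extracts at high or low dose.

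Some of these counts hung on 1 library. With Palmul-tang the high-dose count of 24 was 13 without replicate 3 at high dose, and the low-dose count of 23 was 14 without vehicle replicate 2, 13 without replicate 2 at low dose and 6 without replicate 3 at low dose. At low dose the Poria count of 10 was 5 without its replicate 1, the Atractylodis count of 17 was 10 without vehicle replicate 2 and 11 without replicate 3 at low dose, and the Glycyrrhizae count of 27 was 16 without vehicle replicate 2.

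Genes around the 51 were counted from 5 further lists at high against low dose. As background, 2.35% of all tested genes were called higher and 1.44% lower with Sibjeondaebo-tang, 1.29% and 0.794% with Palmul-tang, and 1.06% and 0.484% with Poria. The shares were 0.113% and 0.0957% with Atractylodis, 0.552% and 0.653% with Ginseng, and 18.5% and 18.4% with Glycyrrhizae. At an unadjusted p under 0.05, both ways together, 12.1% of all tested genes passed with Palmul-tang and 11.9% with Poria. With Ginseng 9.64% did and with Atractylodis 6.85%. Of 43 other mitosis genes, 31 rose with Sibjeondaebo-tang, 32 with Palmul-tang, 18 with Poria and 3 with Ginseng, and none fell with these. With Atractylodis edgeR and DESeq2 called 0, with 5 higher and 1 lower at an unadjusted p under 0.05. The genes with the smallest adjusted p were ARHGAP11A (log2 0.36) and the condensin subunit NCAPD2 (0.30) with Sibjeondaebo-tang, the condensin subunit NCAPG2 (0.47) and the centralspindlin subunit RACGAP1 (0.34) with Palmul-tang, and the CENPA chaperone HJURP (0.38) and the checkpoint ATPase TRIP13 (0.25) with Poria. With Glycyrrhizae 4 rose, among them HJURP (0.31) and SKA1 (0.32), and 19 fell, among them SGO2, a protector of centromeric cohesion (-0.71), and FAM83D (-0.52).

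Of the 24 DNA replication genes 18 rose with Sibjeondaebo-tang, those of smallest adjusted p being the ribonucleotide reductase subunit RRM2 (0.34) and the helicase subunit MCM7 (0.33), 13 with Palmul-tang, by that measure first RRM2 (0.38) and MCM4 (0.34), and 13 with Poria, first MCM7 (0.28) and MCM5 (0.36), and none fell with these. With Glycyrrhizae the licensing factor CDT1 rose (0.29) and 9 fell, first RRM2 (-0.41) and MCM4 (-0.36). With Ginseng edgeR called 0 of them and DESeq2 1, with 9 higher and none lower at an unadjusted p under 0.05. With Atractylodis both called 0, with 2 higher and none lower at that p. Of all tested genes 9.64% passed that p with Ginseng and 6.85% with Atractylodis, both ways together. Of 16 transcription regulators of mitosis genes, MYBL2, a partner of MuvB in activation, rose with Sibjeondaebo-tang (0.34), Palmul-tang (0.37), Poria (0.23) and Glycyrrhizae (0.23). The repressors E2F8 (0.32) and E2F7 (0.40) rose with Sibjeondaebo-tang and Palmul-tang in turn. With Glycyrrhizae 3 regulators rose and 5 fell, the falls including NFYB, a subunit of the factor that binds CCAAT (-0.47), and the E2F partner TFDP2 (-0.40). These were 18.8% and 31.2% of the regulators, where 18.5% of all tested genes rose and 18.4% fell, so the share of rises was that of all genes. With Ginseng and with Atractylodis edgeR and DESeq2 each called 0 regulators, with 2 higher and 1 lower for Ginseng and 2 lower for Atractylodis at an unadjusted p under 0.05. Among 17 genes of the anaphase-promoting complex and its co-factors, the ubiquitin-conjugating enzyme UBE2S rose with Sibjeondaebo-tang (0.33), Palmul-tang (0.24), Poria (0.27), Glycyrrhizae (0.29) and Ginseng (0.18). ANAPC1 also rose with Palmul-tang (0.19), and with Glycyrrhizae ANAPC10 rose (0.44) while 3 fell, among them ANAPC2 (-0.35) and ANAPC7 (-0.24). With Glycyrrhizae 11.8% of the 17 genes rose and 17.6% fell, shares no higher than the 18.5% and 18.4% of all tested genes. With Atractylodis edgeR and DESeq2 called 0 of the 17, and none had an unadjusted p under 0.05.

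The list of 14 inhibitors of cyclin-dependent kinases and of mitotic entry was counted in the same way. With Glycyrrhizae 4 rose and 3 fell (28.6% and 21.4% of the list, where 18.5% and 18.4% of all tested genes did). CDKN1A, the inhibitor p21, stood at 239 ± 9.14 CPM at high dose, against 137 ± 6.58 CPM at low dose (SD, n = 3 each), a log2 change of 0.81 ± 0.05 (adjusted p = 6.07e-19), and the stress-induced inhibitor GADD45A rose by 1.16 ± 0.07 (adjusted p = 7.13e-19). CDKN2C (-1.24 ± 0.06) and CDKN1C (-1.86 ± 0.13) fell. With Sibjeondaebo-tang the kinase PKMYT1, which holds CDK1 inactive, rose (0.43) and CCNG2 fell (-0.37), where DESeq2 also called 1 each way. With Palmul-tang, Poria, Ginseng and Atractylodis edgeR called 0 inhibitors and DESeq2 1, 1, 0 and 0. At an unadjusted p under 0.05, 2 were higher and 1 lower with Palmul-tang, and 3 higher and 1 lower with Poria. At that p 1 was higher and 1 lower with Ginseng, and none with Atractylodis. Of all tested genes 12.1%, 11.9%, 9.64% and 6.85% passed that p, both ways together, in the same order of extracts. With Paeoniae, without replicates, 8 of the 14 passed the log2 ratio of 0.32 upward and none downward. Of all 17764 tested genes 3941 passed it upward and 3819 downward. CDKN1A stood at 124.8, 140.6 and 306.7 CPM at low, medium and high dose of Paeoniae (log2 1.29) and CCNG2 at 12.6, 14.1 and 35.0 CPM (log2 1.41).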

How the data were processed

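RNA of A549 cells was sequenced in 60 libraries with a directional kit and 100 bp paired-end reads. Per the submitters' processing notes, reads passed FastQC 0.11.9 and Trim Galore 0.6.5, were aligned with STAR 2.7.3a to GRCh38 and quantified with RSEM 1.3.3. No annotation release or strand setting is given in the sources used here. Per gene, the authors deposited RSEM expected counts. Of 270 columns the 60 of this series were used and 210 were not. Counts were rounded, since only 76% of values above 0 were whole (within 1e-09), and symbols came from the gene name tables (41706 genes).

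Genes were filtered with filterByExpr, scaled by TMM and fitted with 1 mean per group over all libraries (edgeR 4.0.16, R 4.3.3, glmQLFit, 35 residual degrees of freedom, biological coefficient of variation 5.59%), and 29 comparisons were tested with Benjamini-Hochberg adjustment over 17764 genes at 0.05. SEs are the log2 change over the square root of F, and CPM are TMM-scaled. Angelicae and Paeoniae, with 1 library per dose, have log2 ratios of CPM + 1 and no test. The 51 replicate pairs had a chi-square per degree of freedom of 2.61 to 37, so none lay within sampling noise.

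The members and the 5 further lists were chosen with earlier results of these data known. The text names the most abundant gene of each role, CDC20, CCNB1, AURKB, CDK1, PLK1 and MKI67 with every library, the 3 largest called changes each way of a comparison, exceptions of up to 5 genes and, of each further list, the 2 called genes of smallest adjusted p each way; AURKA, GTSE1 and KIF20A at each dose, and the values by library of other genes, were chosen after their values were seen. Replicate numbers were taken to pair samples where all 3 correlations of same-numbered deviations were over 0.1, as in 6 of 25 comparisons: high against low dose for Poria and Ginseng, medium against low for Glycyrrhizae and Ginseng, high against medium for Glycyrrhizae, and Ginseng at high dose against vehicle. Alternatives were DESeq2 1.42.0, RLE scaling, no filter, a replicate block, only the compared libraries, other pseudocounts and leaving out each library, the last with the trended dispersion of the full fit.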

Additional observations from a re-analysis of the deposited data

Results flagged for a closer look

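These results were picked out because a test of the difference itself showed that the dose change differed between 2 extracts. Between Poria and Atractylodis the change at high against low dose differed in 3 mitosis genes, GTSE1 by 0.44 log2, PRC1 by 0.29 and CDC20 by 0.30, each higher with Poria. Between Glycyrrhizae and Ginseng it differed in 33, those of smallest adjusted p being GTSE1 (-0.63), KIF20A (-0.78) and AURKA (-0.55), all lower with Glycyrrhizae. Between Glycyrrhizae and Sibjeondaebo-tang it differed in 44, those of smallest adjusted p being KIF20A (-1.06), GTSE1 (-0.86) and AURKA (-0.66), all lower with Glycyrrhizae. The last pair spans 2 sets of sample codes, so extract and set cannot be told apart there, though each change is taken within its own set. The epithelial and fibroblast marker sums of the high-dose Glycyrrhizae libraries, given above, were lower than at low dose, while the mitochondrial share overlapped. The part of these measures in the last 2 results was not tested.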

How the results depend on the processing

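No call of a mitosis gene reversed direction under any alternative run. The count at high against low dose stayed within 1.5 times of its value under DESeq2, RLE scaling, no filter, the replicate block and only the compared libraries for Sibjeondaebo-tang (44), Palmul-tang (40), Poria (30) and Glycyrrhizae (29), and was 0 throughout for Atractylodis. For Ginseng (9) it was 3 without the filter, 14 with the replicate block and 0 with only the compared libraries. At medium against low dose it was 5 without the filter and 0 with only the compared libraries for Sibjeondaebo-tang (3), and 0 without the filter, 5 with the block, 0 with only the compared libraries and 3 with DESeq2 for Glycyrrhizae (1). With only the compared libraries it was 9 for Sibjeondaebo-tang at high dose against vehicle (21), and at low dose against vehicle 5 for Poria (10), 14 for Glycyrrhizae (27, and 17 without the filter) and 12 for Ginseng (26). For Poria minus Atractylodis (3) it was 6 without the filter, 7 with the block, 0 with only the compared libraries and 7 with DESeq2. A pseudocount of 5 took the Angelicae count of 1 to 0. Fits of only the compared libraries have fewer residual degrees of freedom; for the rest the cause was not tested.

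Leaving out 1 library at a time gave, at high against low dose, 36 to 40 for Sibjeondaebo-tang, 21 to 25 for Palmul-tang, 18 to 23 for Poria, 0 for Atractylodis, 26 to 28 for Glycyrrhizae and 1 to 10 for Ginseng. At medium against low dose it gave 0 to 3 for Glycyrrhizae and 0 for the others, and 36 to 39 at high against medium dose of Glycyrrhizae. At high dose against vehicle it gave 16 to 20 for Sibjeondaebo-tang, 13 to 22 for Palmul-tang, 31 to 35 for Poria, 11 to 15 for Atractylodis, 32 to 38 for Glycyrrhizae and 13 to 18 for Ginseng, and at low dose 21 to 27, 6 to 23, 5 to 11, 10 to 16, 16 to 23 and 19 to 24 in the same order. Differences between extracts gave 0 for Sibjeondaebo-tang minus Palmul-tang, 2 to 5 for Poria minus Atractylodis, 30 to 35 for Glycyrrhizae minus Ginseng and 42 to 44 for Glycyrrhizae minus Sibjeondaebo-tang. Where this leaves 1 library in a group, it is assumed to vary like the others.

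Over single genes and comparisons, 7779 alternatives kept the call, 66 gained and 627 lost it. Over all genes at high against low dose, only the compared libraries gave 268 calls for Sibjeondaebo-tang (672 in the full model), 108 for Poria (275), 13 for Ginseng (214) and 19 for Atractylodis (37), and the replicate block 557 for Palmul-tang (370), 457 for Poria and 88 for Atractylodis, which had 209 without the filter and 67 with DESeq2. Of the counts of mitosis genes in paired comparisons, the block changed by over 1.5 times those printed beside the results of Ginseng and Glycyrrhizae, and no other.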
